A study of Mus musculus with 6 samples.

Results

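The genes described here are the kinesins and the genes of the centromere, the kinetochore and the spindle checkpoint, measured by RNA-seq in hematopoietic stem and progenitor cells (HSPCs) of wildtype and Mirc11-/- mice. The members were taken by symbol: every Kif and Cenp gene, the Bub and Mad genes, the Aurora kinases, the Cdca and Ska genes, and Ndc80, Nuf2, Spc24, Spc25, Plk1, Ttk, Incenp and Mki67. Of 23997 symbols in the table, 84 matched, and 78 of these averaged at least 1 normalized count in the 6 libraries, as did 15662 genes in all. The 6 matching symbols below that level were Kif1a, Kif2b, Kif12, Kif26a, Kif4-ps and Aurkc. The members were read by role: 12 mitotic kinesins, 12 transport kinesins, 15 inner centromere genes, 8 outer kinetochore genes, 8 spindle checkpoint genes, 5 genes of the mitotic kinases and the chromosomal passenger complex, 6 proliferation genes (Mki67 and 5 Cdca genes), and 12 remaining kinesins and Cenp symbols. Inner centromere is used here only as a label for Cenpa, Cenpb and inner kinetochore genes such as Cenpc1, Cenph and Cenpt. The passenger complex genes Incenp, Aurkb and Cdca8 are not in that group.

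The wildtype group was C57BL/6 mice, and the Mirc11-/- group carried a constitutive germline deletion of the Mirc11 locus, a cluster of the genes Mir23a, Mir27a and Mir24-2, on the C57BL/6J background. All mice were 6 to 8 weeks old, and the cells were sorted from bone marrow as Lin-Sca-1+c-Kit+ (LSK). Each genotype had 3 libraries, and each library came from an RNA preparation of 3 to 4 pooled mice, so the spread between libraries is a spread between pools. Since the deletion is present in every cell of the animal, the sorted cells and their environment both lacked the cluster.

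Kinesins are motor proteins that move along microtubules. Mitotic kinesins build and drive the spindle, push or hold its poles apart, move chromosomes and complete cytokinesis, while transport kinesins carry vesicles, organelles and other cargo in cells that need not divide. The centromere is the chromosome region marked by the histone variant CENP-A, and the kinetochore assembled on it binds spindle microtubules. The spindle checkpoint holds back anaphase until every kinetochore is attached. Most of these mitotic genes are transcribed late in the cell cycle, in G2 and M phase, and their RNA level in a population is widely used as a sign of how many cells are cycling. In bulk samples a larger number of cycling cells and more RNA per cell cannot be told apart.

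The sequences below are shown because the mutant lacked the Mirc11 cluster, and because the mitotic members varied together from library to library. The study also names a paralog cluster, Mirc22, with related miRNAs, which this deletion does not cover. The mature strands of the cluster, from RefSeq on GRCm38.p6, lie on the plus strand of chromosome 8. They are given with the seed, bases 2 to 8, in capitals. The 3 seeds differ from one another.
mmu-miR-23a-3p, chr8:84208563-84208583: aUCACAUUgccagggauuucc
mmu-miR-27a-3p, chr8:84208727-84208747: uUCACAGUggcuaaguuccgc
mmu-miR-24-3p, chr8:84208875-84208896: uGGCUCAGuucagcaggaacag

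The 120 bases before the start site of 6 members, also from RefSeq on GRCm38.p6 and in the sense of the gene, are given with matches to 2 promoter motifs in capitals. One is the cell cycle genes homology region (CHR) type, TTTGAA or its reverse complement TTCAAA, through which the DREAM and MuvB complexes act on late cell cycle genes. The other is the CCAAT box, CCAAT or ATTGG, which NF-Y binds. Kif11, Kif15, Kif22 and Mki67 are examples of mitotic members with a CHR type match in these 120 bases. Other mitotic members, such as Kif18a and Cenpe, have none there. Kif17 and Kif3b are examples of transport kinesins.
Kif11, chr19:37376262-37376381, plus strand: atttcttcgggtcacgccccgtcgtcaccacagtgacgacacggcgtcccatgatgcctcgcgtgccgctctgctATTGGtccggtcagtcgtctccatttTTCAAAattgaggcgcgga
Kif15, chr9:122950961-122951080, plus strand: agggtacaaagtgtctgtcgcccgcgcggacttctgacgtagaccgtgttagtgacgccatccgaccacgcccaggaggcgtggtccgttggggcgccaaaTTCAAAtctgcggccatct
Kif22, chr7:127042421-127042540, minus strand: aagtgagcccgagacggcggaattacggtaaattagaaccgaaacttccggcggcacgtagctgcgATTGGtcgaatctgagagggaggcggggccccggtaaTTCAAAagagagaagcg
Mki67, chr7:135716380-135716499, minus strand: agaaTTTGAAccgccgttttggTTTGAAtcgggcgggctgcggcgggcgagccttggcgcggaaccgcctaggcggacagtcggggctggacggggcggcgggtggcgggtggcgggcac
Kif17, chr4:138262131-138262250, plus strand: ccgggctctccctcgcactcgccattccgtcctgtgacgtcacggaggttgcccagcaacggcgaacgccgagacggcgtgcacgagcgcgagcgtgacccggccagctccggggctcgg
Kif3b, chr2:153291296-153291415, plus strand: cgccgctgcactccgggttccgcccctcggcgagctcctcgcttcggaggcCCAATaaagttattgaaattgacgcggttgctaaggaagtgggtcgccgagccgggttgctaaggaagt

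Over the RefSeq promoter windows, which run from 250 bases before to 50 after each start site, 67 of the 78 members had at least 1 window and 76 windows were read in all. The CHR type motif was in 9 of 11 mitotic kinesin windows (81.8%), in all 3 windows of the mitotic kinases and passenger complex, and in 4 of 6 windows each of the outer kinetochore and of the proliferation genes (66.7%). It was in 4 of 11 checkpoint windows (36.4%), in 4 of 17 inner centromere windows (23.5%) and in 0 of 10 transport kinesin windows, against 17.9% of the 32851 windows of all genes. The CCAAT box was in 13 of 17 inner centromere windows (76.5%), 7 of 11 mitotic kinesin windows (63.6%) and 4 of 10 transport kinesin windows, against 37.4% of all windows. An E2F type motif, TTCCCGC or GCGGGAA, which marks genes of G1 and S phase, was in 8 of 17 inner centromere windows (47.1%) and in 0 of the 11 mitotic kinesin windows, against 4.6% of all. Both strands were searched, and in 2 member windows matches to different motifs overlapped. Windows of the same gene can overlap, and a match in both was counted in each. That was so for the CHR type match of Bub3, and the 4 checkpoint windows with that motif belong to 3 genes. The CCAAT matches of Kif1b, a transport kinesin, were likewise counted in each of its windows. A match describes letters in a window and is not a measured binding site.

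**Figure D1:**
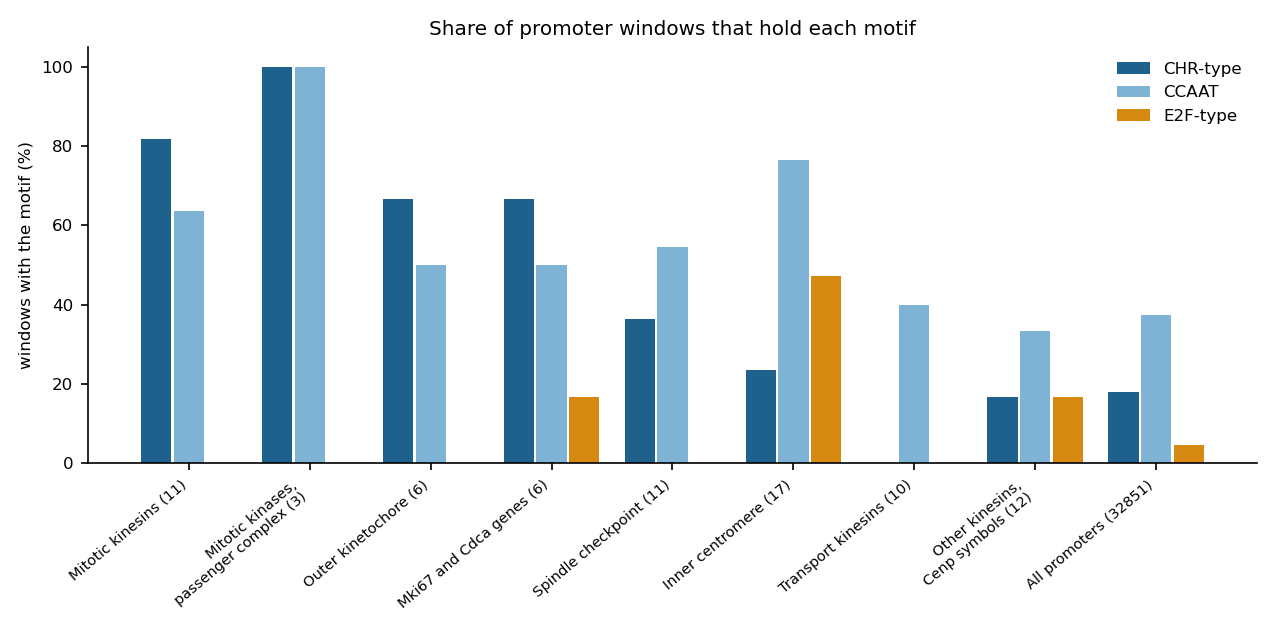
Share of RefSeq promoter windows (250 bases before to 50 after the start site) that hold each of 3 motifs, in percent, for the members by role and for all promoters, with the number of windows in brackets. The CHR type motif is in 81.8% of mitotic kinesin windows, 0% of transport kinesin windows and 17.9% of all windows.

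Sites for the 3 miRNAs were counted as perfect matches to the 7 seed bases in each gene's longest 3′ UTR in the annotation, and all 78 members have one. At least 1 site was present in 24 members (30.8%), against 39.8% of the measured genes that have such a UTR. The median UTR was 666.5 bases among the members and 1111 among all genes, and its part in the lower share was not tested. Mitotic kinesins had a site in 2 of 12 genes, Kif14 and Kif18b, and transport kinesins, with a median UTR of 2922 bases, in 6 of 12. Mad2l1, which encodes the checkpoint protein MAD2, had sites for all 3 miRNAs. The median log2 fold change was 0.12 over the 24 members with a site and 0.06 over those without, and 0.02 and -0.01 over all genes with and without. Among the 24 are genes near the floor, such as Kif6 and Kif26b, with means of 7.23 and 6.33 normalized counts. Over the 70 members with a mean of at least 100, the medians were 0.08 with a site and 0.06 without.

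The libraries held 15029379 to 17051541 reads in genes, with no separation by genotype. Levels below are normalized counts, that is reads divided by a per-library size factor near 1. Reads over the deleted hairpins, Mir23a, Mir27a and Mir24-2, numbered 8 to 44 per gene in the wildtype libraries and 0 in every Mirc11-/- library. Kit, the stem cell factor receptor of the gate, had 6644 to 9950 normalized counts in all 6 libraries, and Ly6a, which encodes Sca-1, had 374 to 683. Of the antigens stained to remove mature cells, the T cell gene Cd3e was at 0 in 4 libraries and at most at 2.01 in the other two, while the myeloid gene Itgam stood at 1263 to 1653.

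Compared per kilobase of exon, mitotic kinesins took 10 of the first 12 ranks among the motors. Their mean normalized count per kilobase over the 6 libraries ran from 48.8 for Kif18a to 497 for Kif20a, with a median over the 12 genes of 241. Transport kinesins ran from 0.557 for Kif5c to 320.2 for Kif5b, with a median of 85.2. Kif20a, a cytokinesis motor, Kif11, the motor that pushes spindle poles apart, and Kif22, a chromosome arm motor, led the order, and the fourth was Kif5b, the ubiquitous conventional kinesin heavy chain. Of the exon bases of Kif20a, 29.3% lie under exons of a gene on the opposite strand. Ranges over the 6 libraries of neighbours in the order overlapped almost throughout, and from Kif20a down to Kif3b, in rank 17, each gene overlapped the next. The neuronal heavy chains Kif5a and Kif5c were at 8.00 and 0.557 per kilobase, and the neuronal motor Kif1a was among the symbols below the minimum level. Kif17, best known as a dendritic motor, was at 146 per kilobase, above Kif3a and Kif3b, whose ranges overlapped its own.

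**Figure D2:**
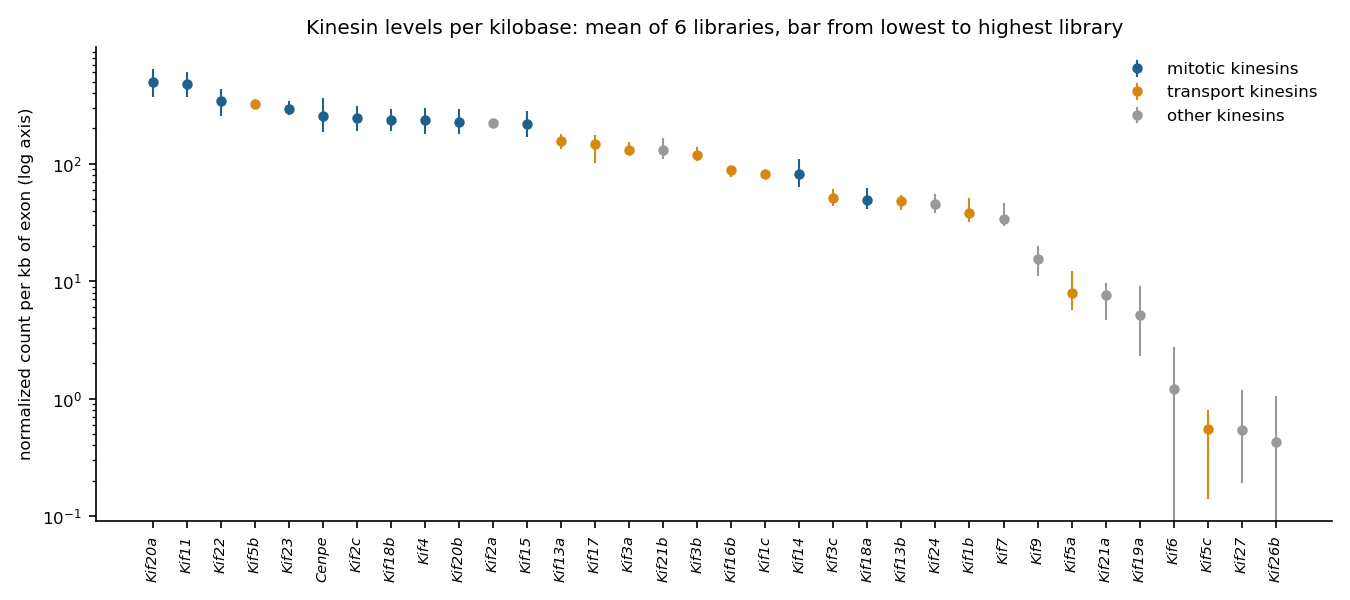
Normalized count per kilobase of exon of 34 kinesins, on a log axis, as the mean of 6 libraries with a bar from the lowest to the highest library (the bars of Kif6 and Kif26b reach 0). Mitotic kinesins fill most of the upper ranks from Kif20a at 497, and Kif5b, at 320.2, is the highest of the transport kinesins.

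The comparison of the genotypes asked whether loss of Mirc11 changed the RNA of the division machinery in HSPCs. None of the 78 members passed an adjusted p of 0.05 in limma, in which 5 of 15662 genes passed (0.0319%), nor in edgeR on the recovered reads, in which 0.0255% of genes passed. DESeq2 on the same reads gave an adjusted p to 74 of the members and none passed, against 0.924% of the genes with one. At an unadjusted p under 0.05, 0 members were higher and 1 was lower in limma, against 4.15% and 4.09% of all genes. edgeR and DESeq2 each had 1 member higher and 1 lower at that level, against 4.65% and 4.01% of all genes in edgeR and 4.14% and 3.6% in DESeq2. The values of the genotypes overlapped for every member, whereas 6.42% of all genes had all 3 Mirc11-/- values above the wildtype values and 6.53% had them all below. The median log2 fold change was 0.07 over the members, with 53 of 78 positive, and 0.00 over all genes. It was -0.06 without Mirc11-/- library 1 and -0.02 without wildtype library 3, so its sign rested on single libraries.

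The 95% confidence intervals bound what the limma fit without covariates could have missed. For 55 of the 78 members the interval lay within a 1.5-fold change in either direction, and for all 54 mitotic members it lay within a doubling or halving. Of all 15662 genes, 8556 lay within a 1.5-fold change and 11258 within a doubling or halving. Of the 10553 genes with a mean of at least 100, these counts were 8452 and 10098. Of the 70 members at that level they were 55 and 69. Of the 8 members whose interval went past a doubling or halving, all but Cenpv had a mean below 100 normalized counts, and the intervals of Kif6 and Kif26b reached 3.46 and 3.50 on the log2 scale.

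**Figure D3:**
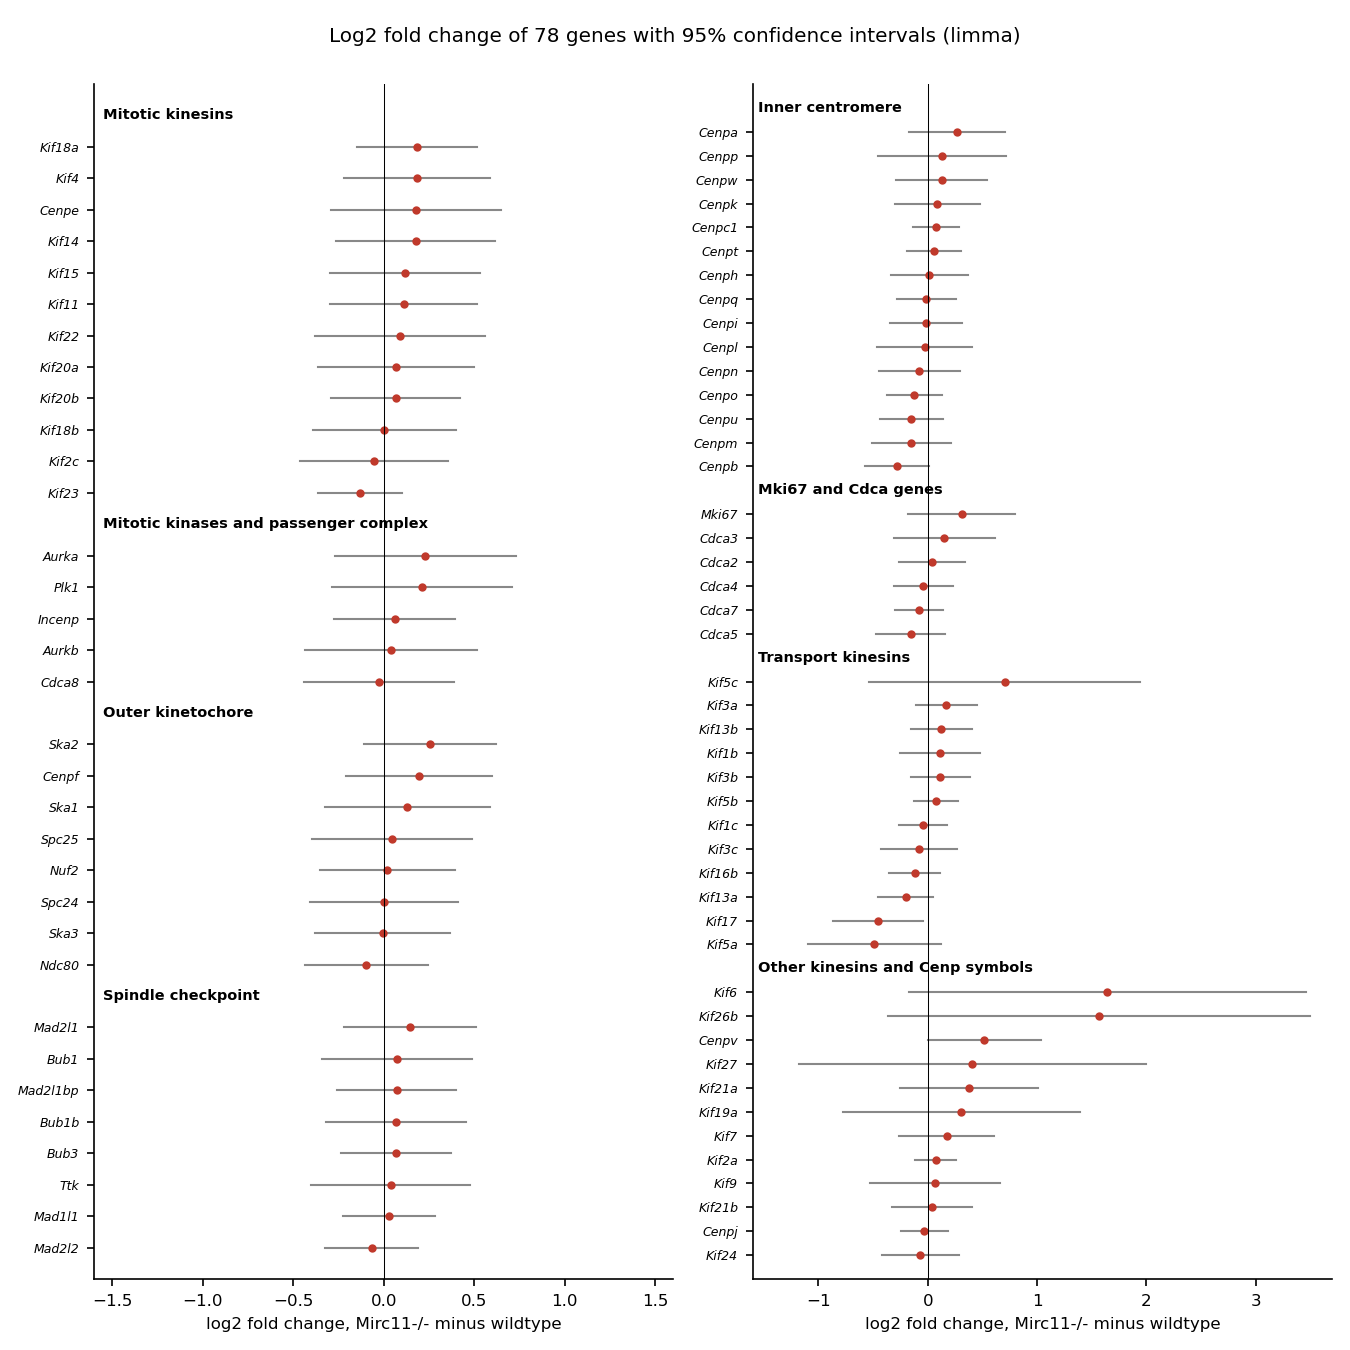
Log2 fold change (Mirc11-/- minus wildtype, on the log2(value + 1) scale) of the 78 members with the 95% confidence interval from limma, 3 libraries a genotype, grouped by role (the 2 panels have different horizontal scales). All intervals but that of Kif17, from -0.87 to -0.04, cross 0, and the widest belong to Kif6, Kif26b, Kif27 and Kif5c.

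Among the mitotic kinesins, 10 of 12 log2 fold changes were positive, with a median of 0.10 and a range from -0.13 for Kif23 to 0.18 for Kif18a. Kif11 had 3705, 3881 and 2745 normalized counts in wildtype libraries 1 to 3 and 4535, 3798 and 2883 in Mirc11-/- libraries 1 to 3. The groups overlapped, with the third library low in each genotype, and the log2 fold change was 0.11 ± 0.18 (SE, adjusted p = 0.884). Kif4, a chromosome condensation and midzone motor, had 1272, 1353 and 984 in wildtype and 1663, 1421 and 1048 in Mirc11-/-, a log2 fold change of 0.18 (adjusted p = 0.792), with 15.1% of its exon bases under a gene on the opposite strand. Like Kif11, it was highest in Mirc11-/- library 1 and lowest in the third library of each genotype. Kif14, a cytokinesis motor, had 854, 846 and 662 in wildtype and 1148, 915 and 656 in Mirc11-/- (adjusted p = 0.813). Kif18a, which dampens chromosome oscillations at the metaphase plate, had 455, 485 and 402 against 613, 489 and 435 (adjusted p = 0.738). Kif23, a centralspindlin subunit, did not follow this order, with 2284, 2710.3 and 2303 in wildtype and 2472, 2134 and 2067 in Mirc11-/- (log2 fold change -0.13, adjusted p = 0.739).

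The kinases that start and steer mitosis spread as widely. Aurka, the centrosomal Aurora kinase, had 1234, 1343 and 912 normalized counts in wildtype and 1835, 1349 and 986 in Mirc11-/-, and its log2 fold change was 0.23 ± 0.22 (SE, adjusted p = 0.791). Plk1, the Polo-like kinase of mitotic entry, had 1644, 1709 and 1289.9 against 2413, 1886 and 1239.7, a log2 fold change of 0.21 (adjusted p = 0.802). In both genes Mirc11-/- library 1 stood above all other libraries and the third libraries were the lowest. Aurkb, the catalytic subunit of the passenger complex, had 2079, 2299 and 1549 against 2651, 2029 and 1498 (log2 fold change 0.04, adjusted p = 0.974). Incenp, its scaffold, had 3962, 4274 and 3249.6 against 4655, 4142 and 3237 (log2 fold change 0.06, adjusted p = 0.932). Mki67, which coats mitotic chromosomes and is the usual proliferation marker, had 10979, 11456 and 8753 in wildtype and 17161, 13761 and 8874 in Mirc11-/-. Its lowest Mirc11-/- value was close to the lowest wildtype value and its other two were above every wildtype value, and the log2 fold change was 0.31 ± 0.22 (SE, 95% interval -0.18 to 0.80, adjusted p = 0.702).

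Of the other proliferation genes, Cdca3, a regulator of mitotic entry, had 1352, 1370.5 and 997 in wildtype and 1746, 1462 and 991 in Mirc11-/- (log2 fold change 0.15, adjusted p = 0.857). Cdca5, which encodes the cohesin protector sororin, had 1171, 1199.8 and 924 against 1142, 977 and 840.2 (log2 fold change -0.16, adjusted p = 0.777). Cdca7, an S phase gene, had 5003, 4882 and 4207 against 4316, 4144 and 4857 (log2 fold change -0.08, adjusted p = 0.830). The third Mirc11-/- library was the highest of its genotype for Cdca7 and the lowest for Cdca3 and Cdca5.

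Of the 15 inner centromere genes, 7 had positive and 8 negative log2 fold changes, with a median of -0.01. Cenpa, the centromeric histone variant, had 1572, 1579 and 1186 normalized counts in wildtype and 2048, 2012 and 1249.7 in Mirc11-/- (log2 fold change 0.27, adjusted p = 0.717). Mirc11-/- libraries 1 and 2 were above all wildtype libraries and library 3 was below wildtype 1 and 2. Cenpb, which binds a motif in the centromeric satellite repeat, had 1964, 1885 and 1541 against 1284, 1461 and 1708. It was the lowest of the group, with a log2 fold change of -0.28 (SE 0.13, 95% interval -0.57 to 0.02, adjusted p = 0.607), and within Mirc11-/- its order of libraries was the reverse of that of Cenpa. Cenpu and Cenpo, subunits of the constitutive centromere network, had log2 fold changes of -0.15 and -0.12 (adjusted p = 0.760 and 0.776). In the annotation 26.7% of the exon bases of Cenpu and 22.5% of those of Cenpo lie under exons of genes on the opposite strand, and whether reads were counted by strand is not given in the study's methods.

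Some of the outer kinetochore genes, such as Ndc80, encode proteins that bind the microtubule itself. Ska2, of the Ska complex, had 430.0, 434 and 322 in wildtype and 558, 438 and 419.6 in Mirc11-/- (log2 fold change 0.26, adjusted p = 0.669), the smallest p of the group. Ndc80, the microtubule binding subunit after which its complex is named, had 936, 877 and 690.0 against 916, 754 and 670.1 (log2 fold change -0.10, adjusted p = 0.876). Cenpf had 1761, 1894 and 1506 against 2529, 2002 and 1485 (log2 fold change 0.19, adjusted p = 0.780), and Ska1 had 358, 334 and 252 against 435, 339.6 and 268 (log2 fold change 0.13, adjusted p = 0.876). The 2 lowest libraries of all 8 genes in this group were the third of each genotype.

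The checkpoint genes had log2 fold changes from -0.07 for Mad2l2 to 0.14 for Mad2l1 and all 8 intervals within a 1.5-fold change. Mad2l1 had 1746, 1719.9 and 1300.0 in wildtype and 2078, 1799.7 and 1408 in Mirc11-/- (adjusted p = 0.817). Bub1, a kinase of the checkpoint, had 1593, 1852 and 1473 against 2224, 1773 and 1285 (adjusted p = 0.933), and Bub1b, which encodes BUBR1, had 2958, 2819.5 and 2231 against 3555, 2708 and 2229.8 (adjusted p = 0.934). Bub3, their partner, ran from 2191 to 3115 over the 6 libraries (adjusted p = 0.911). Mad2l2, which despite its name acts in translesion synthesis and DNA end protection, had 362, 328 and 326 against 313, 317 and 341 (adjusted p = 0.895), and Mad2l1bp, which helps to release MAD2, ran from 235 to 321 (adjusted p = 0.912). Mad2l2 and Mad2l1bp were the checkpoint genes that did not have the third libraries as their 2 lowest.

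Transport kinesins had 6 positive and 6 negative log2 fold changes, with a median of 0.02. Kif17 had 703, 799 and 799.5 normalized counts in wildtype and 468, 485 and 771 in Mirc11-/-. Mirc11-/- libraries 1 and 2 were far below every wildtype library while library 3 was inside the wildtype range, and the log2 fold change was -0.45 ± 0.18 (SE, adjusted p = 0.573). It was the only member with an unadjusted p under 0.05 in limma, and its highest library was 1.71 times its lowest. Without Mirc11-/- library 3, Kif17 was called lower at a log2 fold change of -0.68 (limma, adjusted p = 0.0119), and 1.46% of all genes were called lower in that fit. In the same fit 12 members had an unadjusted p under 0.05 and were higher, against 9.87% of all genes.

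Kif13a, an endosome motor, had 1294, 1454 and 1305 in wildtype and 1368, 1075 and 1096 in Mirc11-/- (log2 fold change -0.20, adjusted p = 0.637). Kif5a had 57.2, 54.6 and 85.1 against 39.7, 41.5 and 57.4 (log2 fold change -0.49, adjusted p = 0.638), and Kif3a, a heterotrimeric kinesin-2 subunit of cilia, had 441, 427 and 457 against 425, 554 and 520.2 (log2 fold change 0.17, adjusted p = 0.718). Kif5b had 2341, 2585 and 2523 against 2833, 2676 and 2372, with an interval from -0.12 to 0.28 (adjusted p = 0.820). Its highest library was 1.21 times its lowest, whereas the median of this ratio was 1.66 over the mitotic kinesins and 1.35 over the transport kinesins.

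Of the remaining members, Cenpv, which is named for a centromere protein, had 174, 149 and 118 in wildtype and 236, 250.3 and 153 in Mirc11-/-. Mirc11-/- library 3 lay between the wildtype values, and the log2 fold change was 0.52 ± 0.23 (SE, adjusted p = 0.597 in limma, unadjusted p = 0.0507). Cenpv had the smallest p of all members in edgeR (adjusted p = 0.572) and in DESeq2 (adjusted p = 0.486). Kif6, Kif26b and Kif21a had few reads. Kif6 had at most 16.6 normalized counts and was at 0 in wildtype library 2, Kif26b had at most 15.6 and was at 0 in wildtype library 3, and Kif21a had 30.4 to 62.4. Their adjusted p values in limma were 0.617, 0.635 and 0.722.

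**Figure D4:**
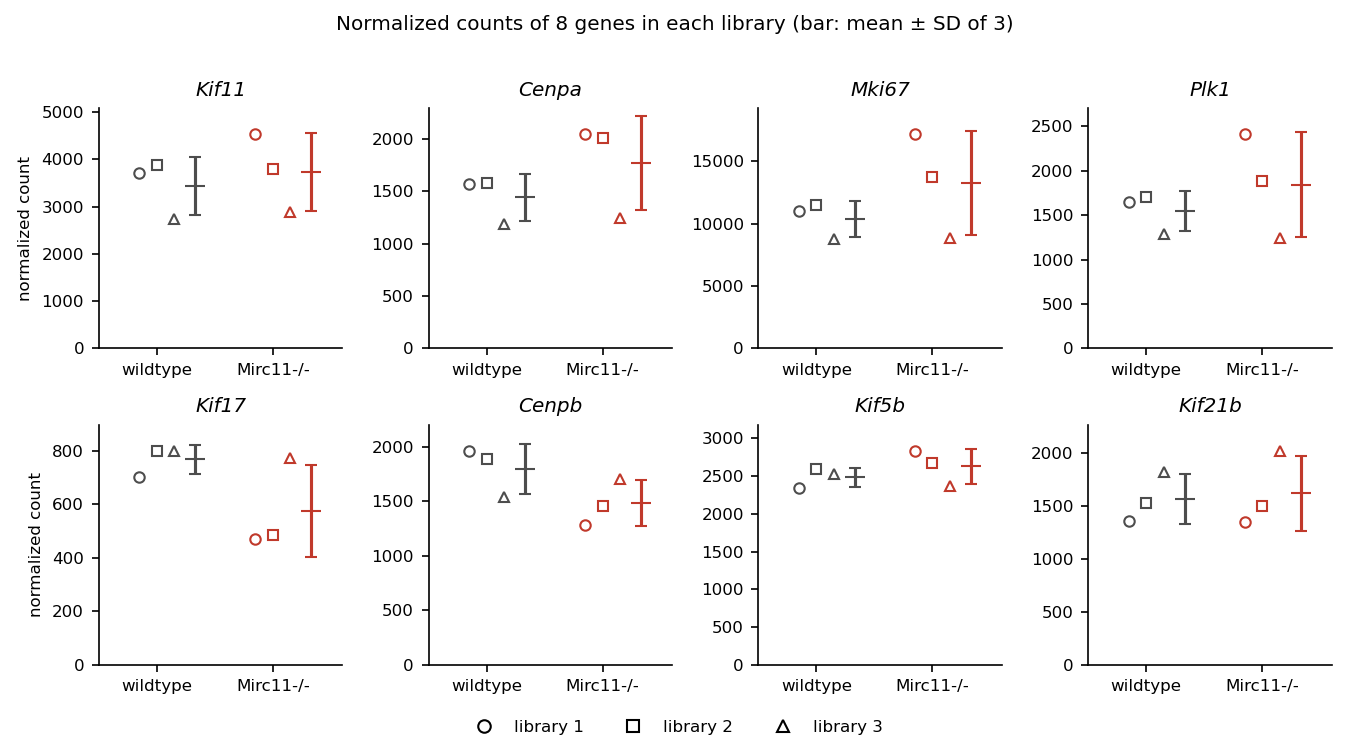
Normalized counts of 8 members in each of the 6 libraries (circle, square and triangle for libraries 1, 2 and 3 of a genotype) with the mean ± SD of 3 beside them, on axes that start at 0. Kif11, Cenpa, Mki67 and Plk1 have the third library lowest in both genotypes, Kif21b has it highest in both, and Kif17 and Cenpb are lower in Mirc11-/- libraries 1 and 2 than in the wildtype libraries.

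What the mitotic members shared was a pattern across libraries rather than between genotypes, which was noticed after their values were seen and is given as a description. Among the 54 mitotic members, 48 (88.9%) had wildtype library 3 and Mirc11-/- library 3 as their 2 lowest values, against 15.8% of all genes tested and 21.1% of those with a mean of at least 100. Mirc11-/- library 1 was the highest for 42 of the 54 (77.8%), against 25.5% of all genes and 30.5% of those with a mean of at least 100. By role this ran from 53.3% of inner centromere genes to 100% of kinase and passenger genes. Nor was it particular to the members, with 79.3% of 29 erythroid genes, 78.6% of 28 mitotic entry and exit genes and 68.2% of 22 other kinetochore genes. It was so for 47.1% of 17 DNA replication genes and 0% of 23 immediate-early genes. The lowest pair was not particular to the members. It was the same for 94.1% of 17 DNA replication genes, 81.8% of 22 other kinetochore genes and 80% of 20 spindle and cytokinesis genes. The share was 64.3% of 28 mitotic entry and exit genes, 48.3% of 29 erythroid genes, 41.2% of 17 neutrophil and monocyte genes and 0% of 23 immediate-early genes. The third library of each genotype made up the lowest pair for 11 of 12 mitotic kinesins, all 8 outer kinetochore genes, all 5 kinase and passenger genes, 13 of 15 inner centromere genes, 6 of 8 checkpoint genes and 5 of 6 proliferation genes. That was so for 0 of 12 transport kinesins, and for 4 of them the same libraries were the highest pair. Kif21b, a motor that limits microtubule growth, was the mirror image, with 1361, 1526 and 1826 in wildtype and 1348, 1499.6 and 2024 in Mirc11-/-.

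Relative to the wildtype mean on the log2(value + 1) scale, the median over the mitotic kinesins was 0.11, 0.15 and -0.24 in wildtype libraries 1 to 3 and 0.42, 0.14 and -0.26 in Mirc11-/- libraries 1 to 3. For the transport kinesins it was -0.06, -0.06 and 0.07 in wildtype and 0.01, -0.04 and 0.03 in Mirc11-/-. The summed normalized counts of the 54 mitotic members were 83610.4, 85887 and 66820 in wildtype and 101520, 85171 and 66946 in Mirc11-/-. The lowest library of each genotype thus had nearly the same sum, and the highest, Mirc11-/- library 1, was apart from the rest. The libraries carry replicate numbers but were not taken as pairs, and a shared number of the low libraries is not known to mark a shared preparation.

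Other gene lists moved with these libraries. A list of 17 DNA replication genes, which act in S phase, had medians of 0.12, 0.08 and -0.21 in wildtype and 0.13, -0.03 and -0.18 in Mirc11-/-, low again in the third library of each genotype and about equal in wildtype library 1 and Mirc11-/- library 1. The 29 measured erythroid genes of a list of 30 had medians of 0.43, -0.09 and -0.30 in wildtype and 1.47, 1.33 and -0.14 in Mirc11-/-. Their summed normalized counts were 29350 to 40767 in wildtype and 31573 to 72673 in Mirc11-/-, and all 29 had positive log2 fold changes. Of these 0 passed in limma and in edgeR and 1 passed in DESeq2. At an unadjusted p under 0.05, 13 were higher in limma, against 4.15% of all genes. At that level edgeR had 23 and DESeq2 18 in either direction, against 1357 and 1213 of all 15662 genes. No erythroid gene of the 29 was at 0 in any library. The marrow had been lysed with ACK and the lineage antibodies of the sort included Ter119, an erythroid antigen. Mirc11-/- library 2 was thus high for the erythroid list while its mitotic kinesin median was close to that of wildtype library 2. The immediate-early genes, which respond within minutes to stimulation and handling, had medians of -0.28, -0.03 and 0.34 in wildtype and -1.21, -0.63 and -0.77 in Mirc11-/-, with sums of 197112 to 292765 and 84875 to 140265. Of the 23 genes 0 passed in limma and in edgeR and 14 passed in DESeq2 (0.924% of all genes with an adjusted p). In limma 16 were lower at an unadjusted p under 0.05, against 4.09% of all genes. The neutrophil and monocyte genes had medians of 0.08, 0.08 and -0.16 in wildtype and 0.34, 0.31 and 0.24 in Mirc11-/-. Their log2 fold changes were mixed, with 10 positive, 7 negative and a median of 0.06. Their sums overlapped, at 186360 to 227199 in wildtype and 160084 to 264168 in Mirc11-/-, with Mirc11-/- library 3 the lowest. Of the 17 genes 0 passed in limma and edgeR and 1 in DESeq2. In limma 4 were higher at an unadjusted p under 0.05, against 4.15% of all genes. With the mean of the erythroid list as a covariate, the median log2 fold change of the mitotic kinesins was -0.23 in place of 0.10. In that fit the median over the 78 members was -0.20 in place of 0.07, and 15 members were lower and 2 higher at an unadjusted p below 0.05, against 4.74% and 4.48% of all genes. The covariate was highest in Mirc11-/- libraries 1 and 2, so with 6 libraries it and the genotype cannot be fully told apart. Many members also vary together, so they are not separate counts. Kit, a marker of the gate, had 8823, 8576 and 9416 normalized counts in wildtype and 6644, 8463 and 9950 in Mirc11-/-. Ly6a, which encodes Sca-1, had 444, 498 and 683 in wildtype and 374, 481 and 534 in Mirc11-/-. Both were lowest in Mirc11-/- library 1 and highest in the third library of each genotype, the reverse of the mitotic kinesins. The part of erythroid cells, of the gate or of handling in the values of the mitotic genes was not tested.

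**Figure D5:**
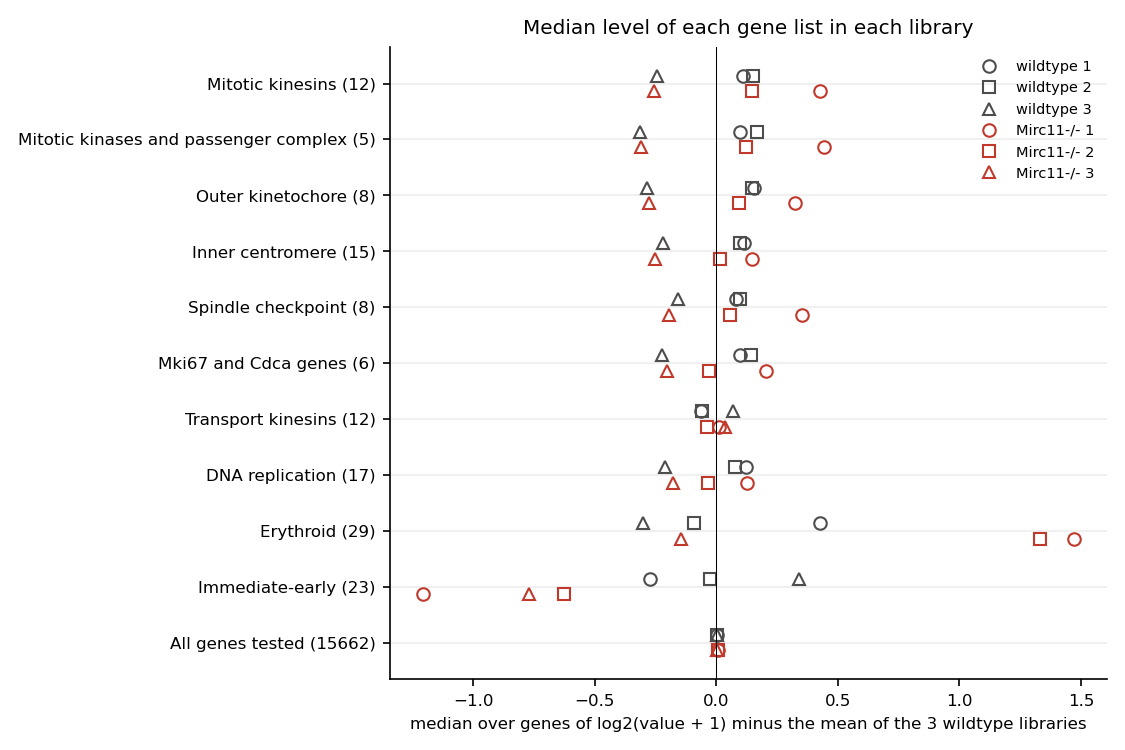
Median over the genes of a list of log2(value + 1) minus the mean of the wildtype libraries, for each of the 6 libraries, with the number of genes in brackets. Mitotic lists are low in the third library of each genotype and highest in Mirc11-/- library 1 (mitotic kinesins -0.24, -0.26 and 0.42), transport kinesins stay within 0.07 of 0, and the erythroid list is high in Mirc11-/- libraries 1 and 2.

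Genes that work beside the members were read in 6 lists. No gene of these lists passed in limma or edgeR, and Kifc3 alone passed in DESeq2. Of 22 other kinetochore genes 1 was higher at an unadjusted p under 0.05 in limma, with a median log2 fold change of 0.06. Zwint, which anchors the RZZ complex at the kinetochore, had 1925, 1810.2 and 1745 in wildtype and 2259, 2198 and 2051 in Mirc11-/- (log2 fold change 0.25, limma, adjusted p = 0.488). Its values did not overlap, as was so for 6.42% of all genes in the higher direction. Casc5, the KNL1 scaffold, had 1111, 1212 and 916 against 1784, 1533 and 966 (adjusted p = 0.641). Of 20 spindle and cytokinesis genes and 28 genes of mitotic entry and exit 0 had an unadjusted p under 0.05 in limma, with median log2 fold changes of 0.04 and 0.07. Cep55, of the abscission site, had a log2 fold change of -0.30 (adjusted p = 0.633), Aspm, of the spindle poles, one of 0.35 (adjusted p = 0.633), and the anaphase promoting complex genes Cdc16 and Ube2s had -0.17 and -0.18 (adjusted p = 0.600 and 0.695). Cdc16 did not overlap either, with 1580, 1552 and 1459 in wildtype and 1404, 1350.0 and 1325 in Mirc11-/-. In that lower direction 6.53% of all genes did not overlap.

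Of 12 genes of the DREAM complex and FoxM1 0 had an unadjusted p under 0.05. E2f4, a DREAM subunit, had 2511, 2226 and 2008 in wildtype and 3362, 2897 and 2184 in Mirc11-/- (log2 fold change 0.31, adjusted p = 0.623), and Tfdp2, its dimer partner, had a log2 fold change of 0.15 (adjusted p = 0.687). Of 12 light chains, adaptors and minus end directed kinesins 1 was higher and 1 lower at that level. Kifc3, a minus end directed motor, had 60.1, 72.5 and 59.8 against 92.7, 167 and 162 (log2 fold change 1.08, limma, adjusted p = 0.419, DESeq2, adjusted p = 0.0169), and Trak1, a mitochondrial adaptor of Kif5b, had 1407, 1421 and 1400.4 against 1212, 1137 and 1269 (log2 fold change -0.23, adjusted p = 0.505). Neither gene overlapped between the genotypes, as was so for 6.42% of all genes in the higher and 6.53% in the lower direction. Of the 17 replication genes 0 had an unadjusted p under 0.05, and Cdc6 and Prim1, with the smallest p, had log2 fold changes of 0.18 and -0.11 (adjusted p = 0.783 and 0.792).

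Weighting the libraries changed the calls. With limma's array weights, in which Mirc11-/- library 2 had a weight of 23.9 and each of the other libraries 0.254 to 1.83, 7 members were called higher and 12 lower, while 18.3% of all genes were called higher and 17.9% lower. The estimate of those weights stopped before it converged, and the calls rest almost wholly on 1 library.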

How the data were processed

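RNA-seq of sorted LSK cells was analysed for 3 wildtype and 3 Mirc11-/- libraries. The gate is that of the study's text, and 1 of its figure legends gives Sca-1 negative cells. According to the study's methods, RNA was selected for poly(A), prepared with NEBNext Ultra II and sequenced on a NextSeq 500, and reads went through STAR, Cufflinks and DE-seq at default settings. The build was taken as mm10, which the submitters' processing notes name, since the symbols are those of the mouse. No tool versions were found in the sources. The authors deposited 1 signal value per gene and library, which is a read count divided by a size factor. Within 0.001, 100% of the values above 0 were whole multiples of 1 read, and no value column was left unused.

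Symbols with a mean of at least 1 were tested by limma 3.58.1 (R 4.3.3) on log2(value + 1) with a trend of variance on mean. The tests were two-sided, with p adjusted by Benjamini-Hochberg over 15662 genes and called at 0.05. edgeR 4.0.16 (quasi-likelihood) and DESeq2 1.42.0 on the recovered reads were alternatives, as were other pseudocounts, filters and scalings, array weights, an erythroid covariate, a replicate block and each library left out. The fit was tested on simulated data. Exon lengths and 3′ UTRs came from GENCODE M21, and promoters and miRNAs from RefSeq on GRCm38.p6. Named members were the 4 with the smallest p of each role, 10 fixed genes (Kif11, Kif5b, Cenpa, Bub1, Bub1b, Mad2l1, Aurka, Aurkb, Plk1 and Mki67) and any past the threshold, with the 2 of smallest p from each context list. Kif21b and the lack of overlap of Zwint and Cdc16 were singled out after their values were seen. The members and lists were chosen with earlier results of these data known.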

Additional observations from a re-analysis of the deposited data

How the results depend on the processing

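The 78 members gave 0 calls in either direction under the other pseudocounts, filters and scalings, limma without trend, the erythroid covariate, edgeR and DESeq2. Array weights gave 7 higher and 12 lower. Leaving out each library in turn gave 0 higher throughout and 0 to 1 lower, Kif17 being called without Mirc11-/- library 3. With a replicate block 0 members were called in either direction. Unadjusted p values under 0.05 came to 4 in the higher and 1 in the lower direction, against 6.24% and 6.01% of all genes, and 30 of 15662 genes were called against 5 without it. The correlations of same-numbered libraries were 0.0664, -0.0632 and 0.0969, so the numbers were not taken as pairs. The block changed no other call.

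With the erythroid covariate, which cannot be fully told apart from the genotype, the mitotic kinesin median was -0.23 and that of all members -0.20. In that fit 15 members were lower and 2 higher at an unadjusted p below 0.05 (4.74% and 4.48% of all genes). The transport kinesin median was -0.0402 with a minimum mean of 5 and of 10, each of which leaves out Kif5c. Among the 36 named members, 16 values became calls, all under array weights except that of Kif17 without Mirc11-/- library 3. The sign of the log2 fold change turned under the erythroid covariate for Aurka (-0.19), Aurkb (-0.35), Bub1 (-0.27), Bub1b (-0.26), Bub3 (-0.17), Cdca3 (-0.27), Cenpa (-0.13), Cenpf (-0.16), Incenp (-0.20), Kif11 (-0.23), Kif14 (-0.22), Kif18a (-0.0281), Kif4 (-0.15), Kif5b (-0.012), Mad2l1 (-0.16), Mad2l1bp (-0.0382), Mki67 (-0.15), Plk1 (-0.25) and Ska1 (-0.23). It turned under array weights for Aurkb (-0.0668) and Bub1b (-0.0271). Left-out libraries moved it across 0 for Aurkb (-0.16 to 0.25), Bub1 (-0.11 to 0.28), Bub1b (-0.11 to 0.23), Bub3 (-0.0557 to 0.20), Cdca3 (-0.0275 to 0.38), Incenp (-0.0548 to 0.21), Kif11 (-0.0451 to 0.29), Kif14 (-0.013 to 0.39), Mad2l1bp (-0.0434 to 0.15), Ndc80 (-0.23 to 0.0065), Plk1 (-0.0065 to 0.47) and Ska1 (-0.0453 to 0.30). The causes of these turns were not tested. The depth was even across libraries, and the 95% interval over the members reached a median of 0.37 to either side on the log2 scale.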
